A study of Mus musculus with 6 samples.

Results

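Transcript levels of 10 transcription factors of lymphoid development were followed in mouse haematopoietic stem cells: the 5 Ikaros family genes Ikzf1, Ikzf2, Ikzf3, Ikzf4 and Ikzf5, the E protein genes Tcf3 and Tcf12, and Gata3, Bcl11a and Id2. They are 10 of 20353 genes that the array annotation names and were chosen by name, and their values come from the 116 of 241576 probe sets annotated to exactly 1 of them. A probe set is a small group of probes read out as 1 value, and each gene has from 3 to 24 of them. Expression was measured on 6 arrays of cells sorted from bone marrow as KLS, which stands for cells with c-Kit and Sca-1 but without lineage markers, and as negative for CD34, a gate for stem cells. The 3 control arrays carry no label beyond control, so which alleles the controls hold is not known. The 3 arrays called floxed come from beta-catenin floxed, Vav-Cre positive animals, in which the Vav promoter drives Cre recombinase in blood-forming cells, including the stem cells and all their progeny. The labels give no age, sex or strain, and nothing says that replicates came from separate animals, so p-values measure only how far these 6 samples spread, and that spread may be technical. The question is whether these lymphoid regulators change in stem cells when the beta-catenin gene Ctnnb1 is floxed.

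Ikaros family proteins are zinc-finger factors that bind DNA as dimers and recruit chromatin remodelling and repressor complexes. Ikaros, encoded by Ikzf1, is needed for lymphoid development and is already present in stem cells and multipotent progenitors, where it takes part in priming lymphoid genes. Helios (Ikzf2) is known from early haematopoietic cells and regulatory T cells, Aiolos (Ikzf3) from maturing B cells and T cells, and Eos (Ikzf4) from regulatory T cells. The E proteins encoded by Tcf3 (E2A) and Tcf12 (HEB) bind E boxes as basic helix-loop-helix dimers and drive B and T lineage genes, while Id2 lacks a DNA-binding region and holds E proteins off DNA. Gata3 is a zinc-finger factor of T cells and innate lymphoid cells that is also present in stem cells, and Bcl11a is a zinc-finger factor needed for B cells that also silences fetal globin genes.

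The name Tcf3 needs care in these data. The array annotation gives the symbol Tcf3 to 12 probe sets, but their neighbours in probe-set number lie on chromosome 6 in 15 of 16 cases, where Tcf7l1, which formerly shared that symbol, is found. E2A is annotated under its older symbol Tcfe2a, with 22 probe sets whose neighbours lie on chromosome 10 in 11 of 11 cases. The 22 probe sets are used here for Tcf3. The 12 others belong to Tcf7l1, a repressor of the Wnt pathway, and are kept apart.

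Promoter sequences were at hand for 7 of the 10 genes, with 10 start sites among them, from the RefSeq table of the mouse assembly GRCm38.p6. Those of Ikzf1 are printed because it was the member whose groups did not overlap, and that of Id2 because its level varied most between arrays and its promoter holds an E box, the site type of the E proteins that it restrains. Each sequence is the 250 bases before the start, on the strand of the gene. Ikzf1 has 2 starts, on the forward strand, at chr11:11685675-11685924 and chr11:11689927-11690176. The promoter of Id2, on the reverse strand, is at chr12:25096093-25096342, and capitals mark its E box.
Ikzf1, first start: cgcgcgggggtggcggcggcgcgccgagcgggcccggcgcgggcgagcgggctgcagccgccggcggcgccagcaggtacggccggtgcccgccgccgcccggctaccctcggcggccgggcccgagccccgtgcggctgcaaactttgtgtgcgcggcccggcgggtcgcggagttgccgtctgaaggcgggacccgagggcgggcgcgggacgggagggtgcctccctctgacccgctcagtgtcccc
Ikzf1, second start: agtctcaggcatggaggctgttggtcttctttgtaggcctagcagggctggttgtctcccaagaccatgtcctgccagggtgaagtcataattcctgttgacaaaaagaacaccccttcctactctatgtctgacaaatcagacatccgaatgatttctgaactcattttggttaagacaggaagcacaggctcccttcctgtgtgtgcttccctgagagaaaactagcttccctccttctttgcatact
Id2: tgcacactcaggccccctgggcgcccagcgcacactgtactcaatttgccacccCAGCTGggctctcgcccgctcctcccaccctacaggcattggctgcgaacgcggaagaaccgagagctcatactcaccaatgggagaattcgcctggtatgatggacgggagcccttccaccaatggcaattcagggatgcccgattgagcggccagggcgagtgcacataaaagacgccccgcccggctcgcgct
The 2 Ikzf1 promoters differed in base composition, with 82.0% G and C at the first start and 47.6% at the second, against a median of 52.4% over 32851 promoters. The motif of the TCF/LEF proteins, which carry beta-catenin to DNA, was searched on both strands as CTTTGAT and CTTTGAA. These letters were found in 3.21% and 4.46% of all promoters, and in 0 of the 10 member promoters. The E box CAGCTG was found in 13% of all promoters and in 2 of the 10, those of Id2, 196 bases before the start, and of 1 of the Tcf12 starts, 240 bases before it. The E box CACCTG, or CAGGTG on the other strand, was in 17.2% of all promoters and in 0 of the 10. These matches describe letters in a window and do not show binding.

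Before the members, the labels were checked on the targeted gene. Of its 17 probe sets 5, the numbers 2 to 6 in order of probe-set number, were far lower in every floxed array, and these were the only probe sets called on the whole array (limma with Benjamini-Hochberg adjustment, threshold 0.05; 5 of 120788, or 0.00414%). Number 3, for example, read 11.74, 11.88 and 12.11 log2 on the controls and 5.54, 6.74 and 6.11 on the floxed arrays. As a whole gene Ctnnb1, taken as the median of 16 probe sets, was 11.38 ± 0.15 log2 (SD, n = 3) on the controls and 10.50 ± 0.19 on the floxed arrays, a log2 difference of -0.88 (SE 0.14, limma adjusted p = 0.667). The gate genes Kit and Ly6a, which encodes Sca-1, lay between 10.93 and 11.90 log2 on all 6 arrays. Of the stem cell markers, 14 of 16 were measured above the filter described next. So were 14 of 16 B cell markers and 18 of 18 granulocyte and macrophage markers, so passing the filter does not tell cell types apart. Control arrays correlated with each other at 0.880 to 0.934 across genes, which are not independent replicates, and floxed arrays at 0.962 to 0.972, and genes had a median SD of 0.23 log2 among controls and 0.14 among floxed arrays. Depth has no meaning for arrays, and their number, 3 against 3, limits the precision.

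A probe set was kept where its mean over the 6 arrays reached 7.60 log2, the median of such means, and each gene takes, array by array, the median of its kept probe sets. Of the 116 member probe sets 91 were kept, and every one of the 10 genes had at least 1. As a floor, 1470 probe sets of olfactory, vomeronasal and taste receptor genes, which are silent outside sensory tissue, had a median of 4.71 and a 95th percentile of 6.56 log2. All probe sets of Ikzf1, Ikzf2, Ikzf5, Tcf3, Gata3 and Bcl11a had means above that 95th percentile. So did 21 of 24 for Tcf12, 8 of 10 for Ikzf3, 5 of 11 for Ikzf4 and 3 of 4 for Id2. Probe sets differ in how strongly they bind, so values are compared between arrays for 1 probe set or gene and not between genes.

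Between groups, none of the 10 genes passed the test. Their log2 differences, floxed minus control, ran from -0.17 for Ikzf1 to 0.14, with 7 higher and 3 lower and a median of 0.08. Over all 14586 genes tested the median was 0.02 and 54.2% were higher. None was called by limma (adjusted p = 0.999 for each of the 10), where 0 of all genes were called, or 0%, with a smallest adjusted p of 0.667, and none had an unadjusted p under 0.05, where 3.70% of all genes did. The 95% intervals set the size that these arrays can bound: their widths on each side ran from 0.25 log2 for Ikzf1 to 0.74 for Ikzf3, and all 10 lay within 1 log2 unit of 0 in both directions. By exact permutation of the 6 arrays, two-sided, the smallest p that 3 against 3 allows is 0.1, so this test cannot reach 0.05.

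**Figure D1:**
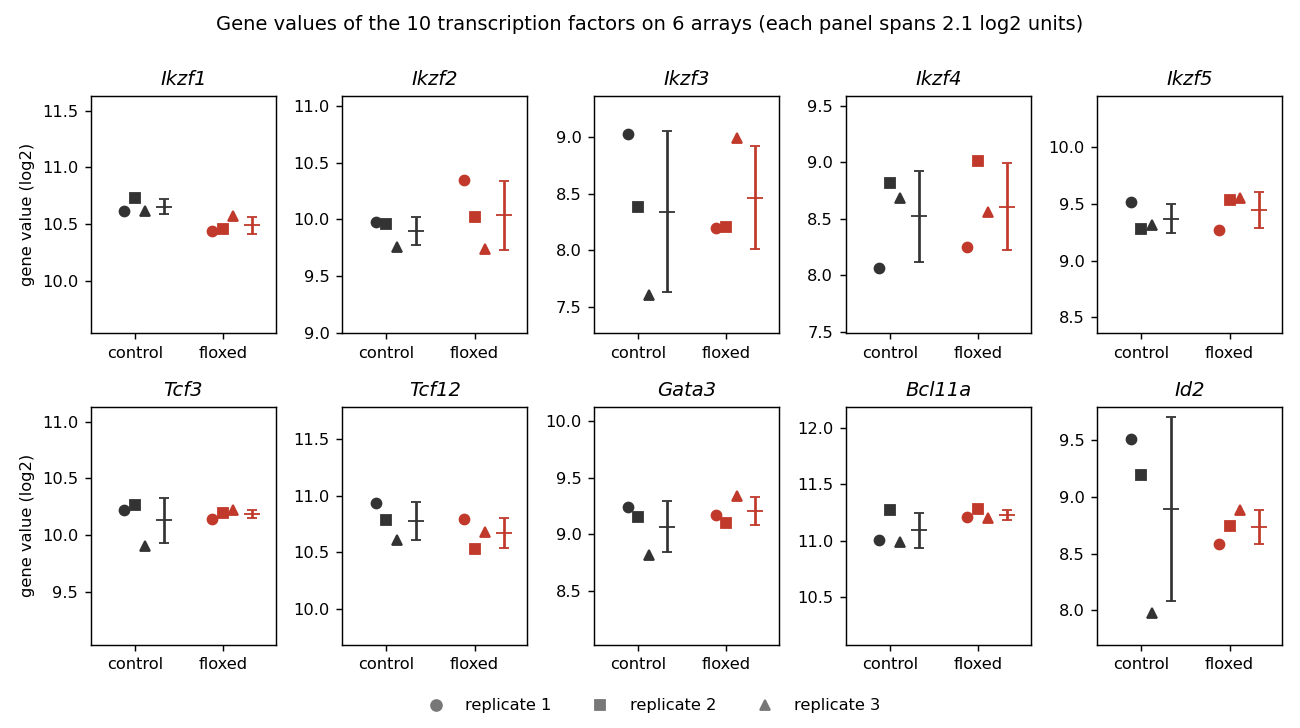
Gene value on the log2 scale (vertical axis) of each of the 10 genes on the 3 control and 3 floxed arrays; point shape gives the replicate number, the horizontal tick is the group mean and the bar is 1 SD, and every panel spans the same number of log2 units. Ikzf1 is the panel in which the groups do not overlap, while Ikzf3 and Id2 spread widest among the controls.

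**Figure D2:**
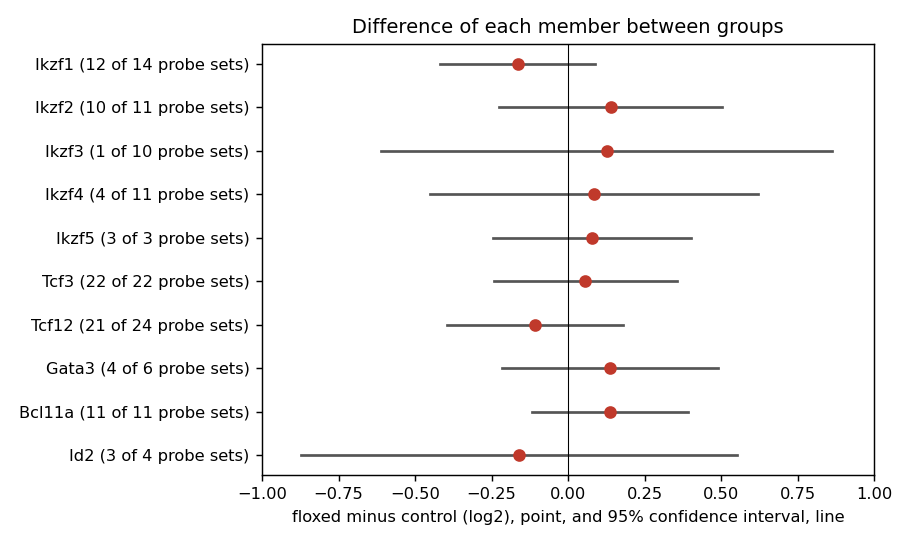
Difference floxed minus control on the log2 scale (horizontal axis) of each member, as a point with its 95% confidence interval as a line, and the number of probe sets kept of those annotated. All 10 intervals include 0, and the widest are those of Ikzf3, from -0.61 to 0.86, and Id2, from -0.87 to 0.55.

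Ikzf1, the Ikaros gene, was slightly lower on every floxed array than on every control. It read 10.61, 10.73 and 10.62 log2 on the controls and 10.44, 10.46 and 10.57 on the floxed arrays. The log2 difference was -0.17 (SE 0.11, 95% interval -0.42 to 0.09), a fold of 0.892, with an adjusted p of 0.999 by limma and an exact permutation p of 0.1. Groups did not overlap in 1 of the 10 members, where 8.44% of all genes did not overlap in either direction and 2.87% with the floxed arrays lower. The difference lay between -0.21 and -0.13 whichever array was left out. With the 2 dim probe sets included as well, the groups overlapped: controls read 10.44, 10.46 and 10.51 and floxed arrays 10.37, 10.29 and 10.49, a difference of -0.09.

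The 14 Ikzf1 probe sets did not share the difference evenly. In order of probe-set number, which in general follows the position along the gene on these arrays but whose exons were not mapped here, all 8 kept probe sets from the fourth to the twelfth had a lower mean on the floxed arrays, and the 4 outside that stretch did not; numbers 1, 13 and 14 of these turned slightly negative after quantile normalization or with equal array medians. The first probe set read 8.12, 7.83 and 7.61 log2 on the controls and 7.98, 7.66 and 7.99 on the floxed arrays, and the second 7.71, 8.13 and 7.50 against 8.03, 7.90 and 8.12, differences of 0.03 and 0.24 with groups that overlap. The third and sixth were under the filter, with means of 7.20 and 7.01. Numbers 4, 5 and 7 gave differences of -0.19, -0.23 and -0.16. Of these 3, the groups did not overlap for number 5 alone, which read 10.27, 10.52 and 10.44 on the controls and 10.11, 10.17 and 10.26 on the floxed arrays.

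The 2 Ikzf1 probe sets with the smallest p were numbers 8 and 10. Number 8 read 11.78, 11.75 and 11.66 log2 on the controls and 11.27, 11.46 and 11.50 on the floxed arrays, a difference of -0.32 (95% interval -0.58 to -0.05). Number 10 read 11.71, 11.47 and 11.40 against 11.06, 11.22 and 11.32, a difference of -0.33 (95% interval -0.63 to -0.02). In both, every floxed array was below every control array, and both had an unadjusted limma p under 0.05 that did not pass adjustment over 120788 probe sets (limma adjusted p = 0.975 for each). The ninth, between them, gave -0.05, with 10.86, 10.39 and 10.71 on the controls and 10.63, 10.50 and 10.68 on the floxed arrays. The eleventh and twelfth gave -0.14 and -0.03.

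The last 2 Ikzf1 probe sets had nearly the same values in both groups. The thirteenth read 12.46, 12.62 and 12.34 log2 on the controls and 12.37, 12.51 and 12.55 on the floxed arrays, and the fourteenth 12.37, 12.22 and 12.08 against 12.29, 12.25 and 12.16, each a difference of 0.01 (95% intervals -0.23 to 0.24 and -0.23 to 0.25). In all, 8 of the 12 kept Ikzf1 probe sets were lower on the floxed arrays and 4 higher. None of them differed from the rest of the gene after adjustment, where diffSplice called 0.0186% of all probe sets. The second had the smallest p in limma's diffSplice test (unadjusted p = 0.0425, adjusted p = 1), where 2.70% of all probe sets had an unadjusted p under 0.05.

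**Figure D3:**
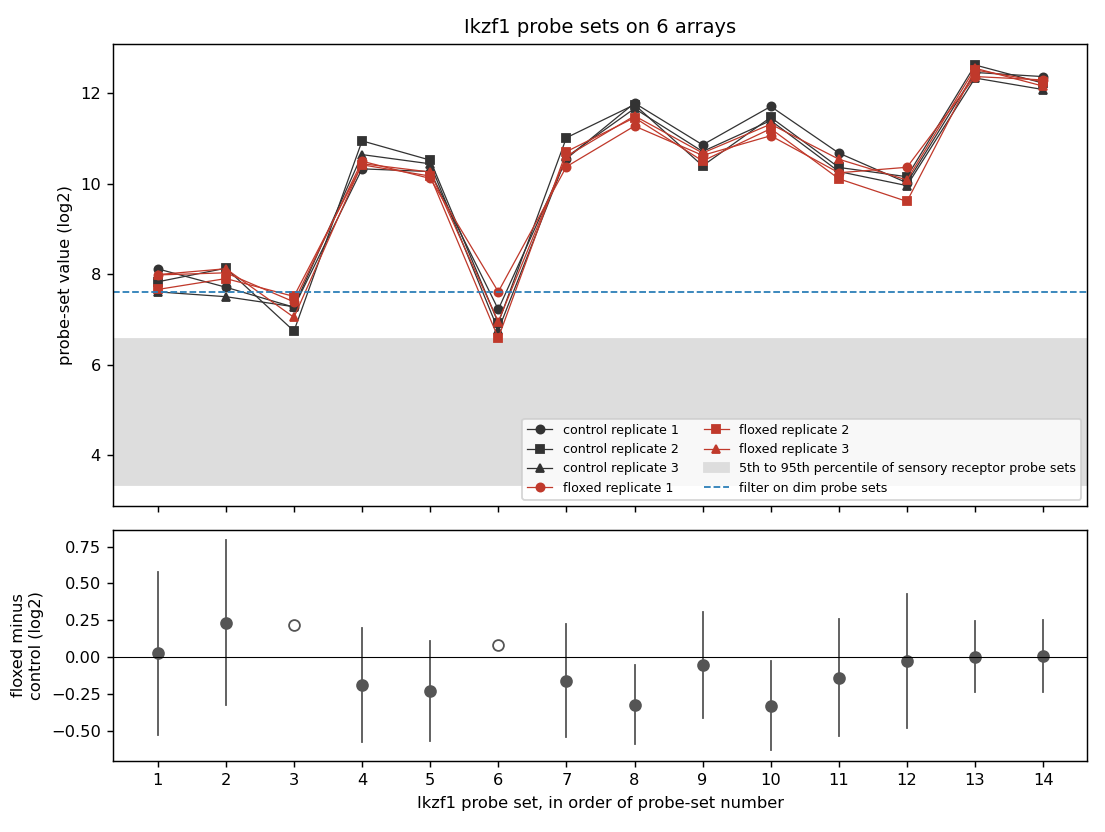
Upper panel: log2 value (vertical axis) of the 14 Ikzf1 probe sets in order of probe-set number (horizontal axis) on each array, with the filter at 7.60 as a dashed line and the 5th to 95th percentile of sensory receptor probe sets shaded. Lower panel: floxed minus control with the 95% confidence interval, open circles without an interval for the 2 probe sets under the filter; the intervals of numbers 8 and 10 alone do not reach 0.

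Over all members, 5 of the 91 kept probe sets, or 5.49%, did not overlap between groups, where 9.45% of all probe sets tested did not overlap. Of these 5, 4 were lower and 1 higher on the floxed arrays, where 2.98% and 6.46% of all probe sets did not overlap in those directions. An unadjusted p under 0.05 was reached by 3 of 91, or 3.30%, where 4.35% of all probe sets reached it. Over both directions together, the members' shares were thus below those of the array as a whole. Of the 91, 42 were lower and 49 higher on the floxed arrays, and 0 were called (smallest limma adjusted p = 0.975).

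Ikzf2, which encodes Helios, had a difference whose sign rested on 1 array. It read 9.97, 9.96 and 9.76 log2 on the controls and 10.35, 10.02 and 9.74 on the floxed arrays, so floxed replicates 1 and 2 were above every control while floxed replicate 3 was below them all. The difference was 0.14 (SE 0.16, 95% interval -0.22 to 0.50; limma adjusted p = 0.999, exact permutation p = 0.5), and it was -0.02 without floxed replicate 1. Of its 10 kept probe sets 9 were higher on the floxed arrays. The first read 11.11, 11.14 and 10.99 on the controls and 11.33, 11.35 and 11.31 on the floxed arrays, a difference of 0.25 (limma adjusted p = 0.975), and is the 1 kept member probe set whose floxed values all lay above the controls.

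Ikzf3, the Aiolos gene, varied far more within groups than between them. Of its 10 probe sets 1 was kept, which read 9.03, 8.39 and 7.61 log2 on the controls and 8.20, 8.21 and 8.99 on the floxed arrays. The other 9 had means from 5.17 to 7.15. The difference was 0.13 (SE 0.33, 95% interval -0.61 to 0.86; limma adjusted p = 0.999, exact permutation p = 1). Its range over the 6 arrays, 1.42 log2, was wider than that of 97.9% of genes, and the sign of its difference turned with the array left out, from 0.47 without control replicate 1 to -0.24 without control replicate 3 and -0.14 without floxed replicate 3.

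Ikzf4, the Eos gene, was dim on these arrays, with 4 of 11 probe sets kept and the other 7 at means from 5.65 to 6.76 log2. It read 8.07, 8.82 and 8.68 log2 on the controls and 8.25, 9.01 and 8.56 on the floxed arrays, with the first replicate of each group lowest. The difference was 0.09 (SE 0.24, 95% interval -0.45 to 0.62; limma adjusted p = 0.999), and it was -0.14 without control replicate 1 and -0.12 without floxed replicate 2. Over all 11 probe sets, dim ones included, it was -0.23, with the floxed arrays, at 6.44, 6.53 and 6.58, below the controls, at 6.83, 6.81 and 6.59; these values are close to the 95th percentile of the sensory receptors, 6.56.

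Ikzf5, the Pegasus gene, is a more divergent member of the family. It read 9.52, 9.28 and 9.31 log2 on the controls and 9.27, 9.53 and 9.55 on the floxed arrays, and the groups overlapped over nearly all of that range. The difference was 0.08 (SE 0.15, 95% interval -0.24 to 0.40; limma adjusted p = 0.999). Of its 3 probe sets, 1 lies in number among genes of chromosome 3 (17 of 18 neighbours), not of chromosome 7 where Ikzf5 is, and gave -0.17, while the other two gave 0.38 and 0.08. Without it the difference of Ikzf5 was 0.23 (limma adjusted p = 0.999), and leaving out 1 array at a time gave 0.029 (floxed replicate 3), 0.033 (control replicate 2), 0.037 (floxed replicate 2), 0.051 (control replicate 3), 0.15 (control replicate 1) and 0.17 (floxed replicate 1).

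Tcf3, the E2A gene, was measured by 22 probe sets, all kept, and its gene value was near the same in both groups. It read 10.22, 10.27 and 9.90 log2 on the controls and 10.14, 10.19 and 10.22 on the floxed arrays, where control replicate 3 was the lowest. The difference was 0.06 (SE 0.14, 95% interval -0.24 to 0.36; limma adjusted p = 0.999, exact permutation p = 1), and -0.06 without control replicate 3. For comparison, Tcf7l1, whose probe sets the annotation calls Tcf3, read 9.06, 8.54 and 8.43 on the controls and 8.24, 8.33 and 8.88 on the floxed arrays, a difference of -0.20 (SE 0.22, limma adjusted p = 0.999).

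Along the Tcf3 row the differences changed sign once, apart from 1 probe set. The first 9 probe sets in number were all higher on the floxed arrays, with a median difference of 0.23, and 12 of the last 13 were lower, with a median of -0.13. The split was chosen after the values were seen and has no test. Averaged by array, the first 9 read 9.05, 9.51 and 8.84 log2 on the controls and 9.41, 9.32 and 9.43 on the floxed arrays, and the last 13 read 11.07, 10.92 and 10.64 against 10.68, 10.77 and 10.76. Groups overlapped in both runs. The 19th probe set had the smallest p, with 11.94, 11.80 and 11.51 on the controls and 11.29, 11.46 and 11.54 on the floxed arrays, a difference of -0.32 (limma adjusted p = 0.975). The 21st did not overlap between groups, with 10.25, 9.72 and 9.90 against 9.52, 9.67 and 9.66, a difference of -0.34.

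**Figure D4:**
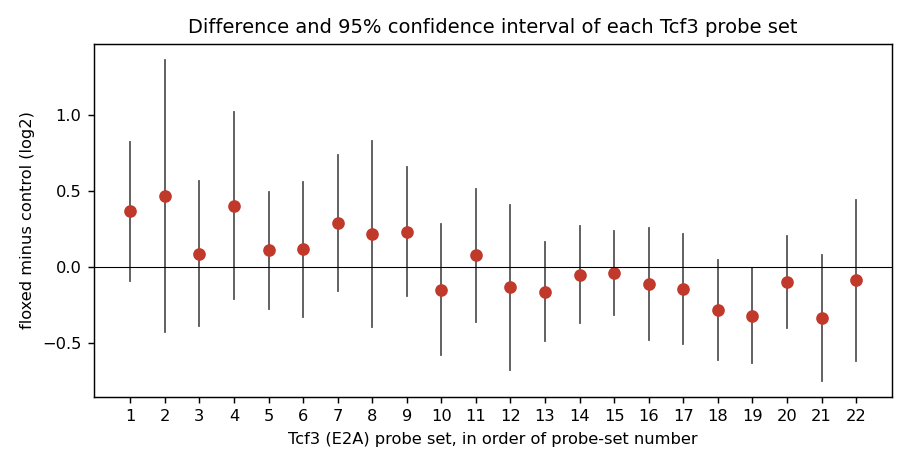
Difference floxed minus control on the log2 scale (vertical axis) of the 22 Tcf3 (E2A) probe sets in order of probe-set number (horizontal axis), with 95% confidence intervals. The first 9 points are above 0 and 12 of the last 13 below it, and 1 interval, that of the 19th, ends just below 0.

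Tcf12, which encodes HEB, read 10.94, 10.78 and 10.61 log2 on the controls and 10.80, 10.53 and 10.68 on the floxed arrays. The groups overlapped and the difference was -0.11 (SE 0.13, 95% interval -0.39 to 0.18; limma adjusted p = 0.999, exact permutation p = 0.5). It was -0.03 without control replicate 1, -0.04 without floxed replicate 2, -0.17 without floxed replicate 1 and -0.19 without control replicate 3. Of its 24 probe sets 21 were kept, 12 lower and 9 higher on the floxed arrays. The 23rd had the smallest p, with 11.19, 10.78 and 11.00 on the controls and 10.81, 10.53 and 10.68 on the floxed arrays, a difference of -0.32 (limma adjusted p = 0.975). Over all members, limma on each probe set minus the mean of the others of its gene called 0 of the 90 member probe sets that have such others, where it called 0.00558% of all probe sets. Of the 90, 3 had an unadjusted p under 0.05, where 3.97% of all probe sets had one.

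Id2, the E protein antagonist, had the widest range of the members, 1.54 log2 over the 6 arrays, wider than that of 98.6% of genes. It read 9.52, 9.20 and 7.98 log2 on the controls and 8.58, 8.74 and 8.88 on the floxed arrays. All floxed arrays thus lay inside the span of the controls, which was 1.54 log2 against 0.30 on the floxed arrays. The difference was -0.16 (SE 0.32, 95% interval -0.87 to 0.55; limma adjusted p = 0.999, exact permutation p = 0.8), -0.62 without control replicate 3 and 0.15 without control replicate 1. Its 3 kept probe sets all had control replicate 1 highest and control replicate 3 lowest, and the remaining one had a mean of 3.09, within the floor.

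Gata3 read 9.24, 9.15 and 8.81 log2 on the controls and 9.17, 9.10 and 9.34 on the floxed arrays, with control replicate 3 lowest and floxed replicate 3 highest. The difference was 0.14 (SE 0.16, 95% interval -0.22 to 0.49; limma adjusted p = 0.999, exact permutation p = 0.5). Of its 6 probe sets, 5 were highest on control replicate 1 and 4 were lowest on control replicate 3, while the sixth moved otherwise. The second read 10.03, 9.43 and 8.92 on the controls, highest on replicate 1, while the sixth read 8.97, 10.04 and 9.76, lowest on replicate 1. In floxed arrays the second read 9.39, 9.34 and 9.75 and the sixth 9.58, 9.58 and 9.40. The fourth, which had the smallest p of its kept probe sets, gave 0.14. The gene's difference was 0.0099 when control replicate 3 was left out, 0.071 when floxed replicate 3 was and 0.22 when control replicate 1 was.

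Bcl11a was among the most even of the members across arrays, with a range of 0.29 log2, wider than that of 9.62% of genes. It read 11.01, 11.27 and 10.99 log2 on the controls and 11.21, 11.28 and 11.20 on the floxed arrays, where control replicate 2 lay with the floxed arrays. The difference was 0.14 (SE 0.12, 95% interval -0.12 to 0.39; limma adjusted p = 0.999, exact permutation p = 0.3), 0.23 without control replicate 2 and 0.086 without control replicate 3. All 11 probe sets were kept, with 5 lower and 6 higher on the floxed arrays and differences from -0.13 to 0.15. Number 10, with the smallest p, gave 0.13. Its paralogue Bcl11b, a T cell factor, read 7.91, 8.44 and 8.62 on the controls and 8.19, 8.29 and 8.41 on the floxed arrays, a difference of -0.02.

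The wide spread of Ikzf3 and Id2 went with particular arrays. As deviations from the mean of the 6 arrays, Ikzf3 was at 0.63, -0.02 and -0.80 log2 in control replicates 1, 2 and 3 and at -0.20, -0.19 and 0.59 in the floxed replicates. Id2 was at 0.70, 0.38 and -0.84 on the controls and at -0.23, -0.07 and 0.07 on the floxed arrays. Markers of B cells, of which 14 of 16 were tested, averaged 0.69, 0.08 and -0.66 on the controls and -0.24, -0.13 and 0.26 on the floxed arrays. Cd79a, a chain of the B cell receptor, read 10.70, 9.37 and 7.06 log2 on the controls and 8.99, 8.85 and 9.84 on the floxed arrays. Its range, 3.64 log2, was the widest of the B cell markers tested. Not all of them moved this way: Vpreb1 and Vpreb2 were highest on control replicate 3. Vpreb2 was lowest on control replicate 1, with 9.99, 10.54 and 10.56 on the controls. The mean level of the B cell markers ran from 8.47 to 9.82 on the controls and from 8.89 to 9.39 on the floxed arrays. All lay above the 95th percentile of the sensory receptors. Only genes past the filter at 7.60 log2 enter these means, so that place was nearly fixed beforehand. Of the defining markers of B cells, Fcrla was under the filter. In bulk RNA, fewer cells of a type and less RNA per cell cannot be told apart.

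The same arrays were at the ends for many genes. Control replicate 1 was highest for 10 of the 14 B cell markers, 3 of the 10 members and 22.5% of all genes, and control replicate 3 was lowest for 9 of the 14, for 5 of the 10 members (Ikzf3, Tcf3, Gata3, Bcl11a and Id2) and for 34.7% of all genes. Markers of granulocytes and macrophages averaged 0.37, 0.41 and -0.41 on the controls and -0.33, -0.30 and 0.25 on the floxed arrays, and those of dendritic cells 0.46, 0.10 and -0.32 against -0.19, 0.01 and -0.06. By gene, control replicate 1 was highest for 6 of 8 dendritic cell markers and control replicate 3 lowest for 5 of 8. For the other lymphoid transcription factors these were 12 and 18 of 26. Stem cell markers moved less, between -0.15 and 0.16 on all arrays, but were also highest on control replicate 1 and lowest on control replicate 3. Ikzf1 had deviations of 0.04, 0.16 and 0.04 on the controls and -0.14, -0.11 and 0.00 on the floxed arrays, lowest on floxed replicates 1 and 2. Markers of T and NK cells, of which 10 of 18 were tested, averaged 0.06, 0.19 and 0.07 on the controls and -0.30, -0.09 and 0.09 on the floxed arrays. Those of erythroid cells and megakaryocytes, of which 12 of 16 were tested, averaged 0.03, 0.25 and -0.06 against -0.22, -0.18 and 0.17. Ikzf1 and both of these lists were highest on control replicate 2, and all 3 were below their means on floxed replicates 1 and 2. The pattern was not particular to them. The granulocyte and macrophage markers did the same, as did a list of the GATA family and its partners. The mean level of the T and NK cell markers ran from 8.47 to 8.60 log2 on the controls and from 8.11 to 8.496 on the floxed arrays, and that of the erythroid and megakaryocyte markers from 9.40 to 9.70 and from 9.24 to 9.63. The part of these marker levels in the values of the members, Ikzf1 included, was not tested.

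**Figure D5:**
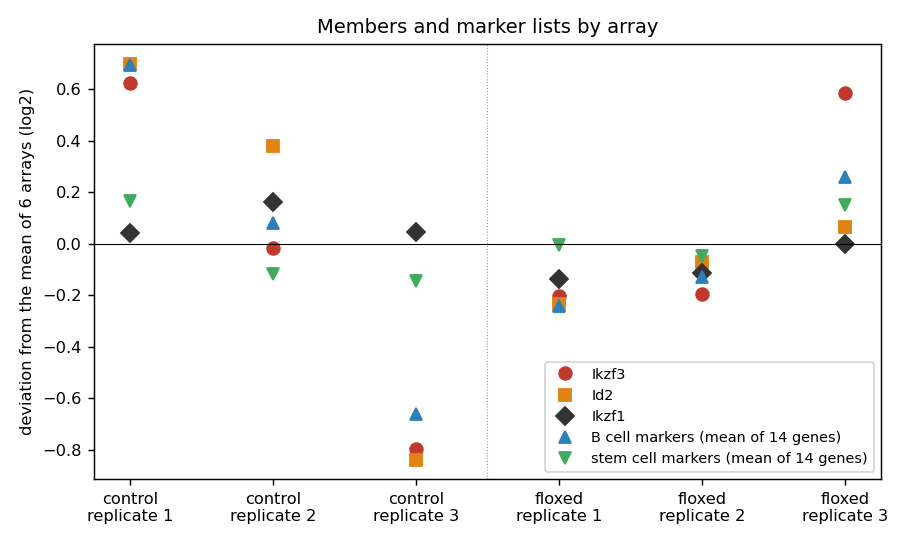
Deviation from the mean of the 6 arrays on the log2 scale (vertical axis) for Ikzf1, Ikzf3 and Id2 and for the mean of 14 B cell markers and of 14 stem cell markers, by array (horizontal axis). Ikzf3, Id2 and the B cell markers are highest on control replicate 1 and lowest on control replicate 3, while Ikzf1 stays between -0.14 and 0.16. The stem cell markers have the same highest and lowest array, over a narrower span.

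Genes around the members were read from 6 lists, and 0 of the list genes were called in either direction (limma adjusted p = 0.999 for each gene named). Most genes named were picked for the smallest p in their list. Over all genes, 3.70% had an unadjusted p under 0.05, 8.44% did not overlap between groups and 54.2% were higher on the floxed arrays. Genes of 1 list share the same 6 arrays, so their directions are not independent. Of the lymphoid priming genes, which mark the first steps to lymphocytes, 13 of 16 were tested, with 3 higher, 10 lower, 2 at an unadjusted p under 0.05 and a median difference of -0.11. Cd27, a receptor of the tumour necrosis factor family, read 11.54, 11.33 and 11.15 log2 on the controls and 10.57, 10.73 and 11.11 on the floxed arrays, a difference of -0.54 (SE 0.16, limma adjusted p = 0.999) with no overlap. Gpr171 gave -0.49. Flt3, the receptor that marks lymphoid-primed progenitors, read 11.86, 11.88 and 11.73 against 11.95, 11.85 and 11.70, a difference of 0.01. Of 28 other lymphoid transcription factors 26 were tested, with 7 higher, 19 lower, 0 at an unadjusted p under 0.05 and a median of -0.03. Among them Irf4 gave -0.65, with control replicate 1 highest at 8.66. Its mean over all arrays, 7.68 log2, was just above the filter. Its floxed values, 7.04, 7.48 and 7.56, and control replicate 3, at 7.24, were under the filter. Myb gave 0.13 with no overlap, at 12.10, 12.12 and 12.08 on the controls and 12.24, 12.24 and 12.22 on the floxed arrays.

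For the partners of E proteins and Id proteins, 10 of 16 genes were tested, with 7 higher, 3 lower, 1 at an unadjusted p under 0.05 and a median of 0.04. As above, 3.70% of all genes had such a p and 8.44% did not overlap between groups. Id1 and Id3, which encode other Id proteins, were under the filter. Runx1t1, a corepressor that binds E proteins, gave -0.60 without overlap. Its mean over all arrays, 7.63 log2, was just above the filter. All its floxed values, 7.11, 7.42 and 7.44, were under the filter, while the controls read 8.23, 7.90 and 7.64. Tal2 gave 0.50, and Lmo2, the bridging factor of stem cell complexes with E proteins, gave 0.04. All 20 listed partners of Ikaros, most of them in the NuRD, SWI/SNF and CtBP complexes, were tested, 13 higher and 7 lower, with 3 at an unadjusted p under 0.05 and a median of 0.07. Rbbp7, a histone-binding subunit of NuRD, read 10.90, 11.00 and 10.96 log2 on the controls and 11.21, 11.26 and 11.29 on the floxed arrays, a difference of 0.30 without overlap. Hdac2, a deacetylase of the same complex, read 10.29, 10.11 and 10.33 against 10.78, 10.40 and 10.67, a difference of 0.37 without overlap, and Rbbp4 gave 0.25. For the GATA family and its partners, 7 of 7 were tested, with 2 higher, 5 lower, 0 at an unadjusted p under 0.05 and a median of -0.07; Gata1, the erythroid factor, gave -0.26 and its cofactor Zfpm1 -0.13.

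Among the marker lists of other cell types, medians lay from -0.19 to -0.07, beside 0.02 over all genes, of which 54.2% were higher on the floxed arrays. An unadjusted p under 0.05 was reached by 0 B cell, 0 T and NK cell, 2 granulocyte and macrophage, 1 dendritic cell, 2 erythroid and megakaryocyte and 0 stem cell markers, where 3.70% of all genes reached it. B cell markers had 5 higher and 9 lower of 14, with a median of -0.07, Cd22 at -0.31 and Cd24a at -0.21. Leaving out control replicate 1 moved it to 0.25 and leaving out floxed replicate 1 to 0.022, whereas it became -0.53 with control replicate 3 left out and -0.23 with floxed replicate 3 left out. T and NK cell markers had 1 higher and 9 lower of 10, with a median of -0.19, Cd4 at -0.63, Prf1 at -0.43 and Nkg7 at 0.07, while Cd3d and Cd3g were under the filter. Granulocyte and macrophage markers had 3 higher and 15 lower of 18, with a median of -0.16, Ngp at -0.88, Mmp8 at -1.03 and Mpo at 0.05, and leaving out control replicate 3 moved the median to -0.57, floxed replicate 3 to -0.41, floxed replicate 1 to -0.062, control replicate 2 to -0.065, control replicate 1 to -0.10 and floxed replicate 2 to -0.11. Dendritic cell markers had 2 higher and 6 lower of 8, with a median of -0.11, Itgax at -0.51 and Cd209a at -0.40. Erythroid and megakaryocyte markers had 1 higher and 11 lower of 12, with a median of -0.12, Epor at -0.48, Alas2 at -0.40 and Car1 at -0.14. Stem cell markers had 9 higher and 5 lower of 14, with a median of 0.04, Ctnnal1 at 0.31, Slamf1 at 0.23 and Kit at -0.10.

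The genes most like Ikzf1 over the 6 arrays were Best1, with Pearson's r of 0.996 and Spearman's rho of 1, Mgam, with 0.993 and 0.943, and Tnfrsf13c, with 0.990 and 1. Tnfrsf13c, which encodes the BAFF receptor of B cells, read 9.86, 10.40 and 9.88 log2 on the controls and 9.15, 9.33 and 9.85 on the floxed arrays. Its groups did not overlap, but this followed from the choice. At a rho of 1 its arrays stand in the same order as those of Ikzf1, whose groups do not overlap. The most opposite were Gemin2 at r of -0.993, with Fbf1 and Usp6nl both at -0.985. Without the 2 arrays farthest from the median of Ikzf1, floxed replicate 1 and control replicate 2, the 3 positive values were 0.989, 0.987 and 0.970. The genes named were picked as extremes among many genes over only 6 arrays, so values of this size follow partly from that choice. At a looser bound, 306 of 14585 genes, or 2.1%, had an absolute r of at least 0.9. The other members had r with Ikzf1 from -0.56 for Ikzf2 to 0.32 for Id2.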

How the data were processed

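The deposited values are on a log2 scale, 1 per probe set and array, with array medians from 7.56 to 7.65. The base of the logarithm was inferred from the values' range, 2.44 to 14.53. The submitters' processing notes name MAS5 but give neither its role nor its version; the normalization is not given in the sources used here, and the values were used as deposited. Per the labels' protocols, 100 ng of total RNA went into each biotinylated cRNA.

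Gene symbols of the platform annotation were updated through a RefSeq table (GRCm38.p6): of 20416 symbols, 17613 were current, 2763 were updated by synonym, 32 had no unique match and 8 that are now the symbol of another gene were reassigned from the chromosome of neighbouring probe sets. Probe sets with several symbols (4475) or none (25004) stayed out of gene values. Probe sets under the median mean were dropped, and gene values were tested with limma 3.58.1 (lmFit and eBayes with trend, two-sided, Benjamini-Hochberg over all 14586 genes, threshold 0.05) in R 4.3.3; the data.table package, at 1.17.8, read the values. Kept probe sets were tested in the same way. Probe sets were compared with their gene by diffSplice. On simulated data with unequal noise between probe sets diffSplice made too many calls, so limma on each probe set minus the mean of the others was added after the data were seen.

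The 10 genes and the lists (lymphoid priming genes, other lymphoid transcription factors, E protein and Id partners, NuRD, SWI/SNF and CtBP partners, GATA family, BCL11 family, and markers of B, T and NK, granulocyte and macrophage, dendritic, erythroid and megakaryocyte, and stem cells) were chosen with earlier results of these data known. Named were all members, the probe set of smallest p in each, all Ikzf1 probe sets, the 3 genes most and least correlated with Ikzf1, per list the 2 genes of smallest p and the brightest, and Ctnnb1; predicted genes were passed over. Tcf7l1, Cd79a, Vpreb1, Vpreb2, Ly6a, Mta3, the 21st Tcf3 probe set and the second and sixth Gata3 probe sets were chosen after seeing them.

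Other settings tried were array weights, a robust eBayes, eBayes without trend, quantile normalization, a shift to equal medians, a filter at the 75th percentile or none, the mean of a gene's probe sets, a block for the replicate number and each array left out. Added after the data were seen were Tcf3 from the Tcf7l1 probe sets or from both, and Ikzf5 without the probe set that lies among genes of another chromosome.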

Additional observations from a re-analysis of the deposited data

How the results depend on the processing

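No alternative run called a member gene or a member probe set. The differences of Ikzf1, Tcf12, Bcl11a and Id2 kept their sign in every setting that kept all 6 arrays and gave them a value. Without a filter Ikzf2 was -0.083, Ikzf3 -0.056 and Ikzf4 -0.23, and at the 75th percentile Ikzf5 was -0.047 and Gata3 -0.017, while Ikzf3, Ikzf4, Id2 and Bcl11b had no probe set left. With array weights Ikzf4 was -0.064, Tcf3 -0.039 and the ninth and thirteenth Ikzf1 probe sets 0.032 and -0.038. The first, thirteenth and fourteenth Ikzf1 probe sets were -0.0032, -0.044 and -0.032 after quantile normalization and -0.0046, -0.025 and -0.020 with equal array medians. Tcf3 was -0.20 from the probe sets annotated Tcf3 and -0.0023 from both sets joined. Ikzf5 was 0.23 without the probe set that lies among genes of chromosome 3. The gene count was 2 without a filter, 1 with the mean over probe sets and 406 with array weights; with those weights 1 lymphoid priming gene, 5 granulocyte and macrophage markers and 1 erythroid and megakaryocyte marker passed, and the medians of the Ikaros partners and the GATA family were -0.023 and -0.23. The Bcl11b difference was -0.70 without a filter and -0.30 with the mean. The probe-set count was 0 at the 75th percentile, and the diffSplice count of 20 was 118 without a filter, 1 at the 75th percentile and 6 with the added limma test. The cause of these shifts was not tested.

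Leaving out 1 array gave 0 to 2 genes called (2 without control replicate 1), 4 to 5 probe sets, and 18 to 460 diffSplice probe sets (460 without control replicate 1, 42 without control replicate 2), with 0 members among them. Member ranges were -0.016 to 0.29 for Ikzf2, -0.24 to 0.47 for Ikzf3 and its kept probe set, -0.14 to 0.26 for Ikzf4, -0.057 to 0.12 for Tcf3, -0.62 to 0.15 for Id2, 0.029 to 0.17 for Ikzf5, 0.0099 to 0.22 for Gata3, -0.19 to -0.026 for Tcf12, 0.086 to 0.23 for Bcl11a and -0.11 to 0.46 for the fourth Gata3 probe set. Ikzf1 probe sets ranged from -0.096 to 0.16 (first), -0.18 to 0.049 (ninth), -0.20 to 0.18 (twelfth), -0.063 to 0.081 (thirteenth) and -0.060 to 0.083 (fourteenth). List medians ranged from -0.53 to 0.25 for B cell markers, -0.57 to -0.062 for granulocyte and macrophage markers, -0.30 to 0.028 for lymphoid priming genes, -0.038 to 0.12 for Ikaros partners, -0.35 to -0.071 for T and NK cell markers, -0.48 to 0.089 for dendritic cell markers and -0.29 to -0.054 for erythroid and megakaryocyte markers.

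The labels do not say whether replicate numbers pair the arrays. Deviations of same-numbered arrays correlated at 0.198, -0.00359 and -0.243 across genes, and those of differently numbered arrays from -0.29 to 0.287. So few values cannot settle whether the arrays were paired. With the replicate number as a block, 0 genes, 5 probe sets and 0 members were called. The 3 arrays a group bound differences of the members to no less than 0.25 log2 on each side.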
